A study of Mus musculus with 6 samples.

Results

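The Hsp, DnaJ and CCT genes encode the main families of molecular chaperones, and their transcripts were examined here in oocytes of aged mice. The members were chosen by symbol. They are all protein-coding genes whose symbol starts with Hspa, Hspb, Hsp90, Dnaja, Dnajb, Dnajc or Cct and a number, together with Hspd1, Hspe1, Hsph1 and Tcp1. The rule found 78 of the 25631 listed genes. The oocytes were punctured out of large antral follicles of 14-month-old female ICR mice that had been injected with equine chorionic gonadotropin, a hormone that makes follicles grow. For the aminophylline libraries (n = 3), the mice were given 4.0 mM aminophylline in their water, a theophylline derivative that inhibits phosphodiesterases without subtype selectivity, for 1 week and then water only for 3 weeks. Mice of the same age without the drug gave the control libraries (n = 3), whose labels read aged and untreated. The comparison asks how the drug, given weeks earlier, altered the oocyte transcriptome. The numbers of mice and oocytes pooled in a library are not given in the sources used here, so the spread between libraries may be partly technical.

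Chaperones bind unfolded or partly folded proteins. HSP70 proteins hold short stretches of a client in cycles of ATP hydrolysis, J-domain proteins of the DNAJA, DNAJB and DNAJC families bring clients to them and start the hydrolysis, and HSP110 proteins help to release the nucleotide. HSP90 receives clients from HSP70 late in folding, and many kinases and steroid receptors depend on it. The chaperonins are closed barrels. HSP60 (Hspd1) and its lid HSP10 (Hspe1) form the one in mitochondria, and the CCT complex, built of rings of 8 different subunits, folds actin and tubulin in the cytosol. A fully grown oocyte transcribes little and relies on transcripts stored during growth.

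Values are FPKM (reads scaled to transcript length and library total), which allow genes to be compared with each other. The libraries held 14112341 to 33641283 reads, control library 2 the fewest. Zp3, which encodes an egg coat protein, stood at 3068 to 5684 FPKM in all 6 libraries. The oocyte marker genes summed to 19257 to 26420 FPKM in control and 20359 to 23675 FPKM in aminophylline libraries. The 13 listed granulosa and cumulus markers summed to 16.3 to 24.1 FPKM in control and 17.8 to 22.9 FPKM in aminophylline libraries. Most of that sum was Cyp19a1, at 7.37 to 15.7 FPKM, and Nr5a2, at 4.43 to 8.53 FPKM. Inha was at 0.417 to 1.66 FPKM. The other 10 were under 1 FPKM in all libraries, among them Amh, at 0 in 5 of the libraries. The stroma and theca markers summed to 2.9 to 3.83 and 3.89 to 5.25 FPKM, and the erythrocyte markers stayed under 1 FPKM. The 13 macrophage markers summed to 210 FPKM in control library 1 and to 83.4 to 104 FPKM in the other 5. Nearly all of the sum in those 5 was C1qb, at 79.2 to 99.8 FPKM, and C1qb was at 72.3 FPKM in control library 1. Lyz2 was at 66.4 FPKM in control library 1 and at most 0.573 FPKM elsewhere, so that library stood apart. The chaperones held a larger share of FPKM in control library 3 (0.917%) than in control libraries 1 and 2 (0.762% and 0.745%). Aminophylline library 3 was close to it, at 0.912%. Counts are therefore also given without control library 1 or control library 3. The part of these libraries in the results was not tested otherwise.

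The chaperone transcripts spanned several orders of magnitude. In mean FPKM over the 6 libraries, 11 members were at 100 or above, 31 between 10 and 100, 15 between 1 and 10, and 21 under 1. The 78 members together held 0.745% to 0.917% of each library's FPKM. The 10 highest members of a library held 65.9% to 72.1% of the members' sum. Hsp90aa1 was the highest member in every library, with 15.1% to 23.7% of that sum, and it ranked 70 among all listed genes by mean FPKM. For the test a gene needed 1 FPKM or more in 3 or more libraries, which left 57 members. None of the 57 passed it through 1 group only. Of the 21 that did not pass, 6 had no more than 3 reads in any library.

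**Figure D1:**
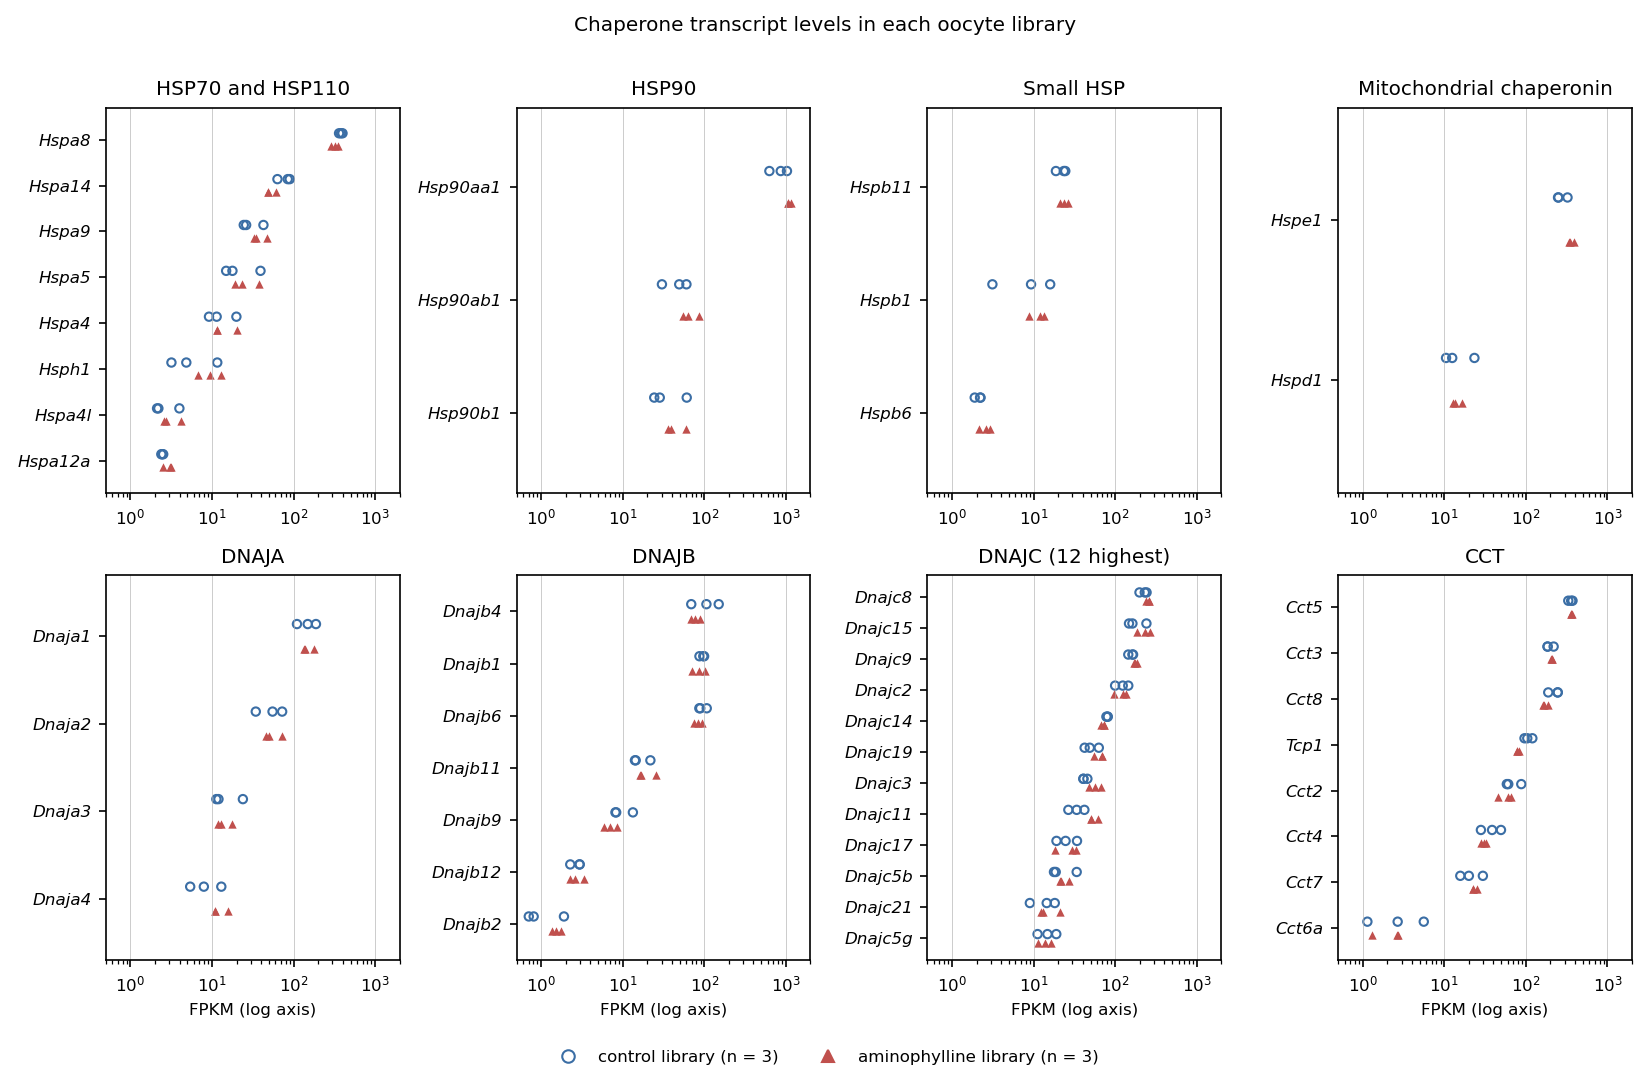
FPKM (log axis) of the tested chaperone genes in each family, with an open circle for each control library and a triangle for each aminophylline library (n = 3 each). Hsp90aa1 lies highest at 627 to 1146 FPKM, Cct6a lies far below the other CCT genes, and only the 12 highest DNAJC genes are drawn.

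Across all chaperones the groups were close. No member passed an adjusted p of 0.05 in limma (Benjamini-Hochberg over 10340 genes), where the background was 0% of all genes, and the smallest adjusted p of a member was 0.661. At an unadjusted p under 0.05, 4 members were higher with aminophylline (Dnajc11, Hspe1, Dnajc3 and Hsp90ab1) and 3 were lower (Hspa14, Tcp1 and Cct8). These 7 are 12.3% of the tested members, beside 7.25% of all genes tested, which split into 4.41% higher and 2.84% lower. The split depended on the scaling, with 2 higher and 3 lower after rescaling to TPM (8.77% of members beside 5.54% of all genes) and 1 higher and 3 lower after median centring (7.02% beside 7.57%). With quantile normalization it stayed at 4 higher and 3 lower (12.3% beside 8.46%). The median log2 fold change was 0.11 over the 57 members and 0.10 over all genes tested, and 64.9% of members and 64.8% of all genes had a positive value. In 13 members (22.8%) every library of 1 group lay above every library of the other, 8 higher and 5 lower with aminophylline, beside 12.5% of all genes, 7.51% higher and 4.96% lower. After rescaling to TPM this held for 5 members (8.77%, beside 10.2% of all genes) and after quantile normalization for 8 (14%, beside 14.3%). After median centring it held for 10 (17.5%, beside 13.8%). The share of members without overlap stood above that of all genes on the deposited scale and with median centring, but not with TPM or quantile normalization. In these bulk libraries a lower transcript level per oocyte and a smaller share of oocytes that carry the transcript cannot be told apart.

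The replicate number was also taken as a block, which assumes a pairing that no source states. With it, 7 members were higher and 4 lower at an unadjusted p under 0.05. These 11 are 19.3% of the members, beside 14.2% of all genes in the same limma fit, 9.88% higher and 4.3% lower. The added members were Hsp90aa1, Hsph1 and Dnaja4 on the higher side and Dnajb4 on the lower. No member passed the adjusted threshold with the block, where 0.455% of all genes did, and the smallest adjusted p was 0.0936 for Dnajc11. The count depended on single libraries. Without control library 1, 1 member was higher and 3 were lower, 7.02% of members beside 3.57% of all genes. Without control library 3, 9 members were higher and 1 was lower, beside 11.8% and 2.47% of all genes, and without control library 2 the count was 10 in all, 17.5% beside 15.6%. Leaving out any one of the aminophylline libraries left 3 members (5.26%) past the unadjusted threshold, beside 6.81%, 3.18% and 4.14% of all genes without aminophylline library 1, 2 and 3.

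**Figure D2:**
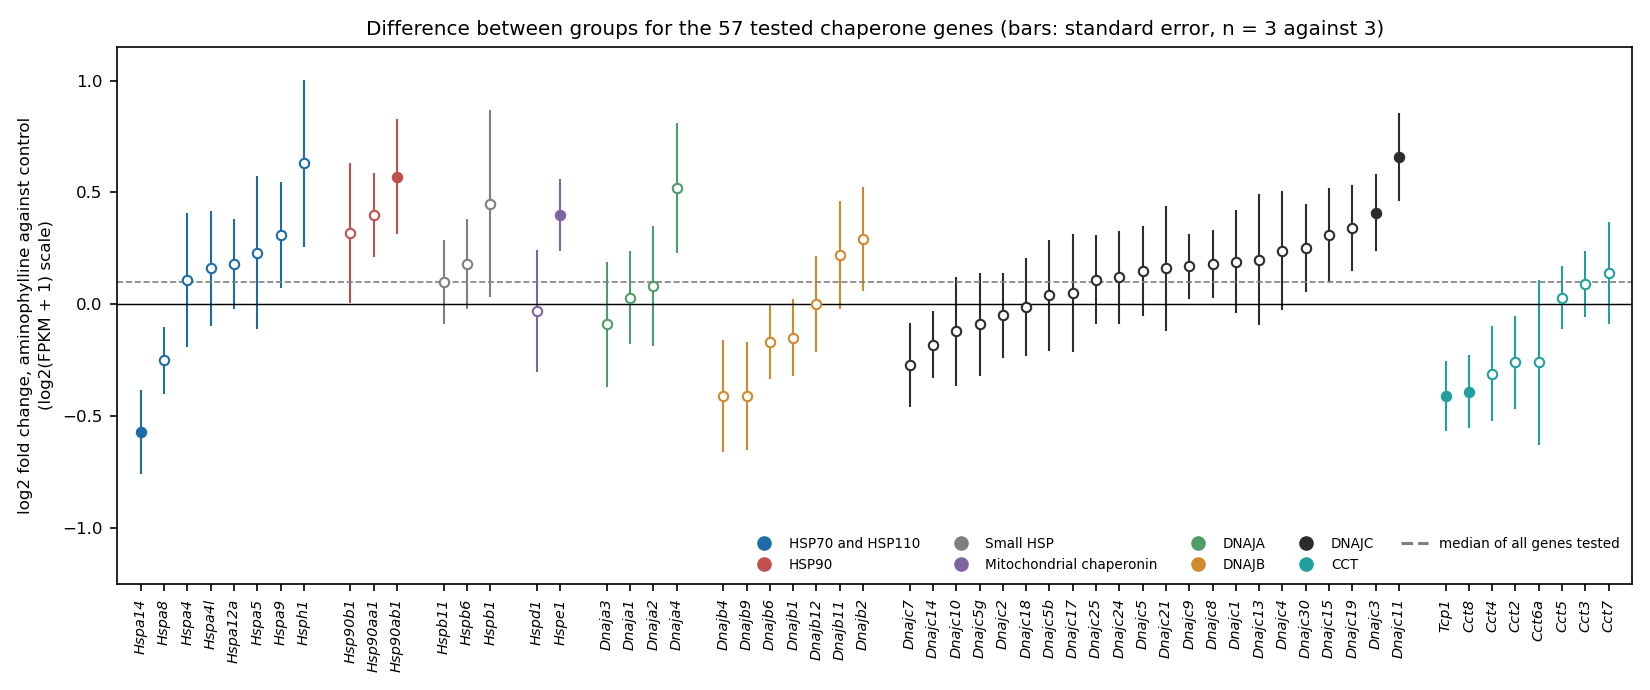
Log2 fold change of aminophylline against control on the log2(FPKM + 1) scale for the 57 tested members, by family, with standard errors (n = 3 against 3). Filled points have an unadjusted limma p under 0.05, and the dashed line is the median of all genes tested, 0.10. The HSP90 genes all lie above the line and 5 of the 8 CCT genes lie below 0.

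The HSP90 genes all had higher mean levels with aminophylline. Hsp90aa1, which encodes the stress-inducible cytosolic HSP90 alpha (chromosome 12, 110691036 to 110696395, GRCm38), stood at 627, 1030 and 864 FPKM in control and at 1058, 1068 and 1146 FPKM in aminophylline libraries. Every aminophylline library was above every control library, and control library 1 was far below the rest. The log2 fold change was 0.40 (SE 0.188, unadjusted p = 0.0549, adjusted p = 0.688), and with the block the unadjusted p was 0.0215 (adjusted p = 0.268). Without control library 1 the log2 fold change was 0.21. Hsp90ab1, the constitutive HSP90 beta (chromosome 17, 45567778 to 45573261), stood at 30.2, 49.2 and 60.3 FPKM in control and at 62.9, 55.2 and 87.2 FPKM in aminophylline libraries. The groups overlapped, because control library 3 was above aminophylline library 2. Its log2 fold change was 0.57 (SE 0.258, unadjusted p = 0.0475, adjusted p = 0.684; with the block 0.00493 and 0.158). The unadjusted p was under 0.05 in only 6 of 17 settings. The call was lost under every other pseudocount, filter and scaling tried on the FPKM without the block, in the unmoderated model and without control library 1 or 2 or aminophylline library 1 or 3, and the log2 fold change was 0.30 without control library 1. Hsp90b1, the HSP90 of the endoplasmic reticulum, was at 28.4, 24.3 and 60.8 FPKM in control and at 35.9, 39.4 and 59.0 FPKM in aminophylline libraries, with a log2 fold change of 0.32 (SE 0.313). Control library 3 held the highest value of all, and leaving out single libraries gave 0.07 (control library 2) to 0.71 (control library 3). The log2 fold changes of the 3 genes stayed positive in all 16 alternative settings. In FPKM the inducible gene exceeded the constitutive one in each library, 13.1 to 20.9 times. Of the 50-base words of the Hsp90aa1 transcript, 58.5% also occur in other annotated transcripts, mostly of the pseudogene-named gene Gm12346, so reads of Hsp90aa1 can be split or pooled in counting.

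Co-chaperones of HSP90 showed no common direction. Of the 20 in the list, 19 were tested, 11 with a positive and 8 with a negative log2 fold change. Pih1d1, a subunit of the R2TP assembly factor, was the one member of that list at an unadjusted p under 0.05. It stood at 11.7, 14.7 and 11.4 FPKM in control and at 17.7, 16.2 and 18.2 FPKM in aminophylline libraries (log2 fold change 0.44, SE 0.189, unadjusted p = 0.0391, adjusted p = 0.682). With the block 3 were higher and 1 was lower at that threshold, beside 9.88% and 4.3% of all genes tested. Ahsa1, which stimulates the ATPase of HSP90, was at 97.2 to 126 FPKM in control and 132, 128 and 145 FPKM with aminophylline, without overlap and with a log2 fold change of 0.26 (SE 0.16, unadjusted p = 0.133). Stip1, which links HSP70 to HSP90, had a log2 fold change of -0.29 (SE 0.21).

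In the HSP70 and HSP110 family, 8 of 13 members were tested, with a median log2 fold change of 0.17 and a range from -0.57 to 0.63. The median rested on single libraries, at -0.02 without aminophylline library 3, 0.05 and 0.06 without control libraries 1 and 2 and 0.40 without control library 3, and was 0.05 with quantile normalization. Hspa14, which encodes the HSP70 of the ribosome-associated complex (chromosome 2, 3488854 to 3512814), stood at 89.7, 63.4 and 84.8 FPKM in control and at 48.0, 49.0 and 61.4 FPKM in aminophylline libraries. Every aminophylline library was below every control library, with control library 2 and aminophylline library 3 close to each other. The log2 fold change was -0.57 (SE 0.187, unadjusted p = 0.0109, adjusted p = 0.664; with the block 0.0034 and 0.137), and the unadjusted p stayed under 0.05 in all 17 settings. Of its 50-base words, 15.6% are shared with other transcripts. Dnajc2 encodes the J-domain partner of Hspa14 on the ribosome. It was at 145, 100 and 124 FPKM in control and at 124, 95.8 and 136 FPKM in aminophylline libraries, and its log2 fold change of -0.05 (SE 0.192) was smaller than its error. The interaction of gene and group was not tested for this pair.

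Hspa8, the constitutive cytosolic HSC70, was the most abundant HSP70 transcript, at 381, 361 and 398 FPKM in control and 319, 289 and 355 FPKM in aminophylline libraries. The groups did not overlap, with a log2 fold change of -0.25 (SE 0.149, unadjusted p = 0.126, adjusted p = 0.728). Of its 50-base words, 73.2% are shared with other transcripts. Hspa9, the mitochondrial HSP70, was at 24.5, 26.2 and 42.7 FPKM in control and 32.4, 34.8 and 46.7 FPKM with aminophylline (log2 fold change 0.31, SE 0.236). The groups overlapped through control library 3.

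Hsph1, the heat-inducible HSP110 that acts as a nucleotide exchange factor, varied widely between libraries. It stood at 3.18, 4.84 and 11.6 FPKM in control and at 6.76, 9.56 and 12.9 FPKM in aminophylline libraries. Its log2 fold change was 0.63 (SE 0.373, unadjusted p = 0.118), with an unadjusted p of 0.00682 and an adjusted p of 0.185 with the block, and it was 0.29 without control library 1 and 1.08 without control library 3. The strictly inducible HSP70 genes were barely detected. Hspa1b had 16, 7 and 56 reads in control and 54, 31 and 82 reads in aminophylline libraries, which is at most 0.954 FPKM, and Hspa1a had 4, 0 and 9 against 1, 8 and 49 reads. These neighbours on chromosome 17 share 62.3% and 60.3% of their 50-base words, mostly with each other, so their separate values are uncertain, and neither entered the test. The Hspa8 level exceeded that of Hspa1b 372 to 2250 times within a library. Hsf1, the transcription factor that drives the heat shock response, was at 17.6, 17.2 and 23.3 FPKM in control and 12.6, 15.1 and 15.9 FPKM with aminophylline (log2 fold change -0.38, SE 0.198, unadjusted p = 0.0777), without overlap. None of the 5 tested HSF regulators and none of the 9 tested nucleotide exchange and release factors passed an unadjusted p of 0.05.

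Hspa5 (BiP), the HSP70 of the endoplasmic reticulum, shared with Hsp90b1 a high value in replicate 3 of each group. It stood at 14.9, 17.8 and 39.3 FPKM in control and at 23.3, 19.4 and 38.0 FPKM in aminophylline libraries, and replicates 1 and 2 ran in the opposite order to those of Hsp90b1. Its log2 fold change was 0.23 (SE 0.342, unadjusted p = 0.519). Dnajc3, a J-domain co-chaperone of BiP (chromosome 14, 118937932 to 118981702), also had replicate 3 highest in each group. It stood at 40.8, 40.9 and 45.7 FPKM in control and at 48.0, 56.6 and 66.5 FPKM in aminophylline libraries. All aminophylline libraries were above all control libraries (log2 fold change 0.41, SE 0.174, unadjusted p = 0.0396, adjusted p = 0.682; with the block 0.029 and 0.289), and the call was lost with TPM (with or without the block), with median centring and without control library 1 or 2 or aminophylline library 2 or 3, which left 10 of 17 settings. The other luminal J-domain genes went apart. Dnajb11 had a log2 fold change of 0.22 (SE 0.241) and Dnajb9 one of -0.41 (SE 0.243), neither of them past the unadjusted threshold.

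Promoter windows from RefSeq (GRCm38.p6), 250 bases before to 50 after the start, were found for 64 of the 78 members and searched on both strands. Hsp90aa1, Hsp90ab1, Hspa8 and Dnajc11 were among those without a window and were not searched. The endoplasmic reticulum stress element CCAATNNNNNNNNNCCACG, known as the site through which unfolded proteins in that compartment raise transcription, was in 3 of the 64 (4.69%) and in 0.137% of 27025 genes. The 3 genes were Hspa5, Hsp90b1 and Dnajc3, those just described. The 150 bases before each start are shown 5′ to 3′ on the gene's strand, because these 3 genes share the element. Capitals mark the fixed letters of the element. In Hsp90b1 the capitals mark its reverse complement, and a further copy lies upstream of the stretch shown. The Hspa5 stretch is chr2:34771940-34772089 (+), that of Hsp90b1 is chr10:86705445-86705594 (-) and that of Dnajc3 is chr14:118937782-118937931 (+).
Hspa5: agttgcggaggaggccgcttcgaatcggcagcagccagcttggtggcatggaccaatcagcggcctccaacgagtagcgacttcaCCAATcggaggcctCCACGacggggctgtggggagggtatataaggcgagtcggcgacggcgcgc
Hsp90b1: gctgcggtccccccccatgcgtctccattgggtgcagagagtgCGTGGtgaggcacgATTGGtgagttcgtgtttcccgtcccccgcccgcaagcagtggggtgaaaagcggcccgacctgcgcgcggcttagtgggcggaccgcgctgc
Dnajc3: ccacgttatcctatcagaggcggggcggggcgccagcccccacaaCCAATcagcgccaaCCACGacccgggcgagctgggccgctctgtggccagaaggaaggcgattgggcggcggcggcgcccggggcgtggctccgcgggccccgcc

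The mitochondrial chaperonin genes Hspd1 and Hspe1 lie head to head on chromosome 1, and their transcripts stood at very unequal levels. Hspe1 (55088148 to 55091317), the HSP10 lid, stood at 248, 324 and 251 FPKM in control and at 388, 348 and 342 FPKM in aminophylline libraries. Every aminophylline library was above every control library (log2 fold change 0.40, SE 0.161, unadjusted p = 0.0308, adjusted p = 0.682; with the block 0.0233 and 0.273). The call was lost with median centring and when any library but control library 2 was left out. Hspd1, the HSP60 barrel, stood at 12.5, 10.5 and 23.4 FPKM in control and at 12.9, 13.5 and 16.6 FPKM in aminophylline libraries, with a log2 fold change of -0.03 (SE 0.273). The difference between the genes was not tested. The Hspe1 level was 10.7 to 30.7 times that of Hspd1, lowest in control library 3. Of the 50-base words, 44.8% of Hspd1 and 36.1% of Hspe1 are shared with other transcripts.

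The RefSeq starts of this pair, 55087932 for Hspd1 and 55088148 for Hspe1, leave 215 bases between them, chr1:55087933-55088147. The same source gives Hspd1 a further start at 55088243, beyond the Hspe1 start, from which the genes overlap. They are shown on the + strand, that of Hspe1, because it lies between these starts of both genes. Capitals mark the units GAA and TTC of 2 overlapping copies of the heat shock element GAANNTTCNNGAA, the pattern bound by heat shock factors, counted on both strands.
Hspd1-Hspe1: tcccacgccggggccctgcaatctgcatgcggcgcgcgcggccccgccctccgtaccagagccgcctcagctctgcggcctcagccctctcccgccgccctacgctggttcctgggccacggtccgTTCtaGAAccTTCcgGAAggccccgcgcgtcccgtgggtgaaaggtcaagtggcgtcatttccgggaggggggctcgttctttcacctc
This element was in 4 of the 64 members (6.25%; Hspd1, Hspe1, Hsph1 and Dnajb6) and in 0.662% of all genes. Hspd1 and Hspe1 were both counted for the same copies in the stretch they share. The pair of units in either order, GAANNTTC or TTCNNGAA, which the longer element contains, was in 31.2% of the members and 17.0% of all genes. Hspe1 and Hsph1 had positive log2 fold changes, Hspd1 one near 0 and Dnajb6, a suppressor of protein aggregation, one of -0.17 (SE 0.165). The TATA box TATAAA was in 6.25% of the members and 15.7% of all genes.

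The CCT subunit genes included 2 of the 3 members that were lower at the unadjusted threshold. These 2 are 25% of the tested CCT genes, beside 2.84% of all genes tested that were lower. Neither passed without control library 3 or without aminophylline library 1 or 2. Of 10 members, 8 were tested, 3 with a positive and 5 with a negative log2 fold change, and their median was -0.26 beside 0.10 for all genes tested. With TPM, quantile normalization or median centring, 2 were positive and 6 negative. Without control library 3 the split was 4 to 4 and the median -0.01, and without aminophylline library 1 the median was -0.08. Tcp1, the alpha subunit (chromosome 17, 12916329 to 12925067), stood at 104, 96.2 and 120 FPKM in control and at 82.3, 78.4 and 78.6 FPKM in aminophylline libraries. All aminophylline libraries were below all control libraries and close to one another. The log2 fold change was -0.41 (SE 0.155, unadjusted p = 0.0233, adjusted p = 0.682; with the block 0.0236 and 0.274), and the call was lost without control library 3 or any one aminophylline library. Cct8, the theta subunit (chromosome 16, 87483325 to 87495869), stood at 245, 188 and 246 FPKM in control and at 168, 160 and 188 FPKM in aminophylline libraries. Control library 2 and aminophylline library 3 nearly met, and the log2 fold change was -0.39 (SE 0.164, unadjusted p = 0.0376, adjusted p = 0.682; with the block 0.0255 and 0.28). Its call was lost in the unmoderated model and without control library 1 or 3 or aminophylline library 1 or 2.

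The remaining subunits had smaller differences. Cct2 had a log2 fold change of -0.26 (SE 0.206) and Cct4 one of -0.31 (SE 0.213), each with its highest value in control library 3. Cct3 (0.09, SE 0.148) and Cct5 (0.03, SE 0.141) were the steadiest, with all 6 libraries at 184 to 219 FPKM for Cct3 and 331 to 373 FPKM for Cct5. Cct7 had a log2 fold change of 0.14 (SE 0.227). Although the protein rings hold the subunits in equal number, the transcripts did not stand in equal amounts. Cct5 had the highest mean and Cct6a the lowest, 134 times apart, and within a library their ratio ran from 66.5 to 316. Cct6a stood at 1.14, 2.68 and 5.60 FPKM in control and 1.29, 2.67 and 2.60 FPKM with aminophylline. Leaving it out, the highest subunit exceeded the lowest 15.8 times. Cct8l1 and Cct6b, the latter known from testis, were under 1 FPKM in all libraries.

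The mean log2 level of the 8 tested CCT genes was 5.83, 5.94 and 6.37 in control and 5.77, 5.90 and 5.96 in aminophylline libraries, so control library 3 stood above the rest. By Pearson correlation over the 6 libraries, the 5 most similar of 10283 other genes were Pdia3 (0.992), Trp73 (0.987), Tmem170 (0.986), Birc2 (0.984) and Cptp (0.979). With 6 points and 1 high library, this is a description only. Prefoldin, which hands unfolded actin and tubulin to CCT, had the transcript Pfdn4 at 810 to 1062 FPKM, above any CCT gene in every library. Of the 11 tested genes of prefoldin and CCT cofactors, 9 had a positive log2 fold change, beside 64.8% of all genes tested. At an unadjusted p under 0.05, 1 was higher and 1 was lower, beside 4.41% and 2.84% of all genes. The higher one, Pfdn6, was called in 13 of 17 settings and the lower one, Vbp1, in 10 of 17. Pfdn6 was at 109, 120 and 114 FPKM in control and 153, 151 and 152 FPKM in aminophylline libraries, with a log2 fold change of 0.41 (SE 0.143, unadjusted p = 0.0159, adjusted p = 0.682). Vbp1, the prefoldin 3 subunit, was at 218, 90.6 and 226 FPKM in control and 104, 85.2 and 117 FPKM with aminophylline. Its groups overlapped through control library 2, and the log2 fold change was -0.70 (SE 0.304, unadjusted p = 0.0421, adjusted p = 0.682; with the block 0.000886 and 0.0899).

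**Figure D3:**
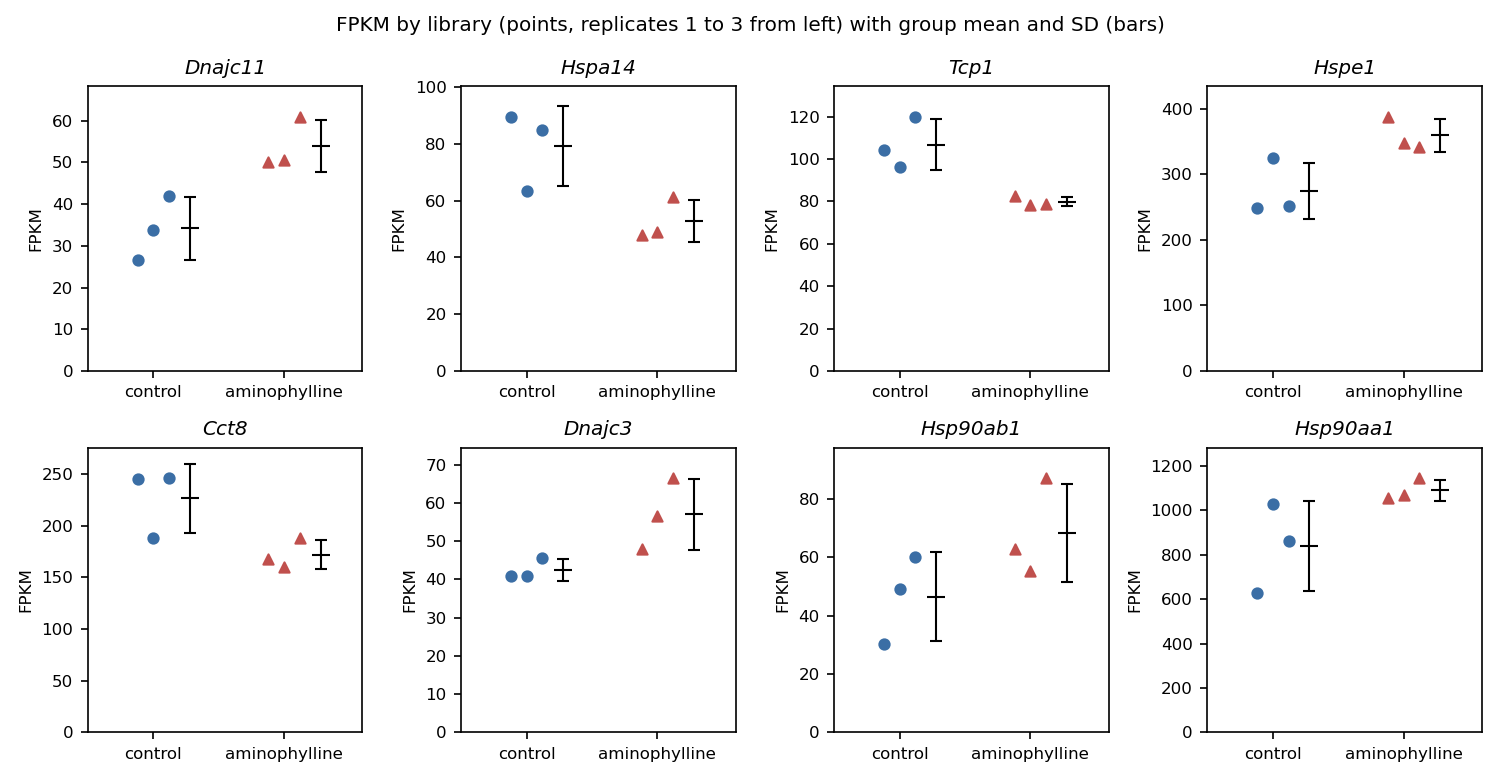
FPKM in each library for the 7 members at an unadjusted limma p under 0.05 and for Hsp90aa1, with the group mean and SD (n = 3 each) beside the points. The groups are apart for all but Hsp90ab1, and Tcp1 shows the narrowest aminophylline group, 78.4 to 82.3 FPKM.

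Among the DNAJC genes, which hold J-domain proteins of many compartments, 22 of 28 were tested, 16 with a positive log2 fold change and a median of 0.15. Dnajc11, a mitochondrial protein associated with the complex that shapes the cristae (chromosome 4, 151933720 to 151981959), had the largest log2 fold change of the tested members. It stood at 26.7, 33.8 and 42.0 FPKM in control and at 50.2, 50.5 and 61.0 FPKM in aminophylline libraries. Every aminophylline library was above every control library. The log2 fold change was 0.66 (SE 0.197, unadjusted p = 0.00638, adjusted p = 0.661; with the block 0.00104 and 0.0936). It ranged from 0.50 to 0.82 over the settings, with an unadjusted p under 0.05 in all 17 of them and none of its 50-base words shared with another transcript. An exact permutation test over 3 against 3 libraries cannot give a p below 0.1.

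Other mitochondrial members of the family had differences of less than 2 standard errors. Dnajc15 and Dnajc19, J-domain proteins of the protein import motor, had log2 fold changes of 0.31 (SE 0.211) and 0.34 (SE 0.191), from mean levels of 185 ± 50.4 and 51.4 ± 10.6 FPKM in control (SD, n = 3). The mean levels with aminophylline were 227 ± 40.8 and 65.0 ± 8.26 FPKM. Dnajc8, a spliceosome-associated protein and the most abundant DNAJC transcript, had a log2 fold change of 0.18 (SE 0.15), and Dnajc9, a histone chaperone, had one of 0.17 (SE 0.146) with all aminophylline libraries (172 to 186 FPKM) above all control libraries (145 to 166 FPKM).

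None of the 4 DNAJA and 7 tested DNAJB genes, the classical HSP40 partners of HSP70, passed the unadjusted threshold without the block. Dnaja1 was the most abundant of them at 149, 110 and 188 FPKM in control and 136, 137 and 177 FPKM with aminophylline (log2 fold change 0.03, SE 0.208). Dnaja4 was at 7.94, 5.40 and 13.0 FPKM in control and 10.8, 10.8 and 15.8 FPKM with aminophylline. Its log2 fold change was 0.52 (SE 0.289, unadjusted p = 0.102; with the block 0.0188 and an adjusted p of 0.259), and it was 0.25 without control library 2 and 0.81 without control library 3. Dnajb4 was at 150, 69.1 and 106 FPKM in control and 76.7, 68.2 and 89.5 FPKM with aminophylline. Control library 2 lay within the aminophylline range, and the log2 fold change was -0.41 (SE 0.251, unadjusted p = 0.133; with the block 0.0378 and an adjusted p of 0.317). It was -0.14 without control library 1 and -0.69 without control library 2. Dnajb1, the heat-inducible HSP40, had one of -0.15 (SE 0.172). The DNAJB median was -0.15 and the DNAJA median 0.06. The DNAJA median had no stable sign, at -0.03 with median centring, -0.19 without control library 2, 0.28 without control library 3 and -0.11 without aminophylline library 3.

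Small heat shock proteins, holdases that keep clients soluble without ATP, were low. Hspb1, the stress-inducible HSP27, was at 9.32, 16 and 3.13 FPKM in control and 12, 8.76 and 13.5 FPKM with aminophylline (log2 fold change 0.45, SE 0.418). The control spread alone exceeded the group difference. Hspb11, a subunit of the intraflagellar transport machinery, was steadier at 18.8 to 26.8 FPKM (log2 fold change 0.10, SE 0.186). Hspb6 was at 1.90 to 2.90 FPKM, and Hspb3, Hspb7 and Hspb8 were under 1 FPKM in all libraries. Among other holdases and disaggregases, none of the 5 tested genes passed the unadjusted threshold without the block. With it Lonp1, a mitochondrial protease, had an unadjusted p of 0.0163 (adjusted p = 0.249, log2 fold change 0.52). Of the 4 tested immediate early genes, which respond quickly to handling of cells, 2 had a positive and 2 a negative log2 fold change, with a median of 0.07. Atf3 had one of 0.42 (SE 0.258) and Egr1 one of 0.23 (SE 0.322), and Dusp1 had a log2 fold change of -0.50 (SE 0.171, unadjusted p = 0.014, adjusted p = 0.676).

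**Figure D4:**
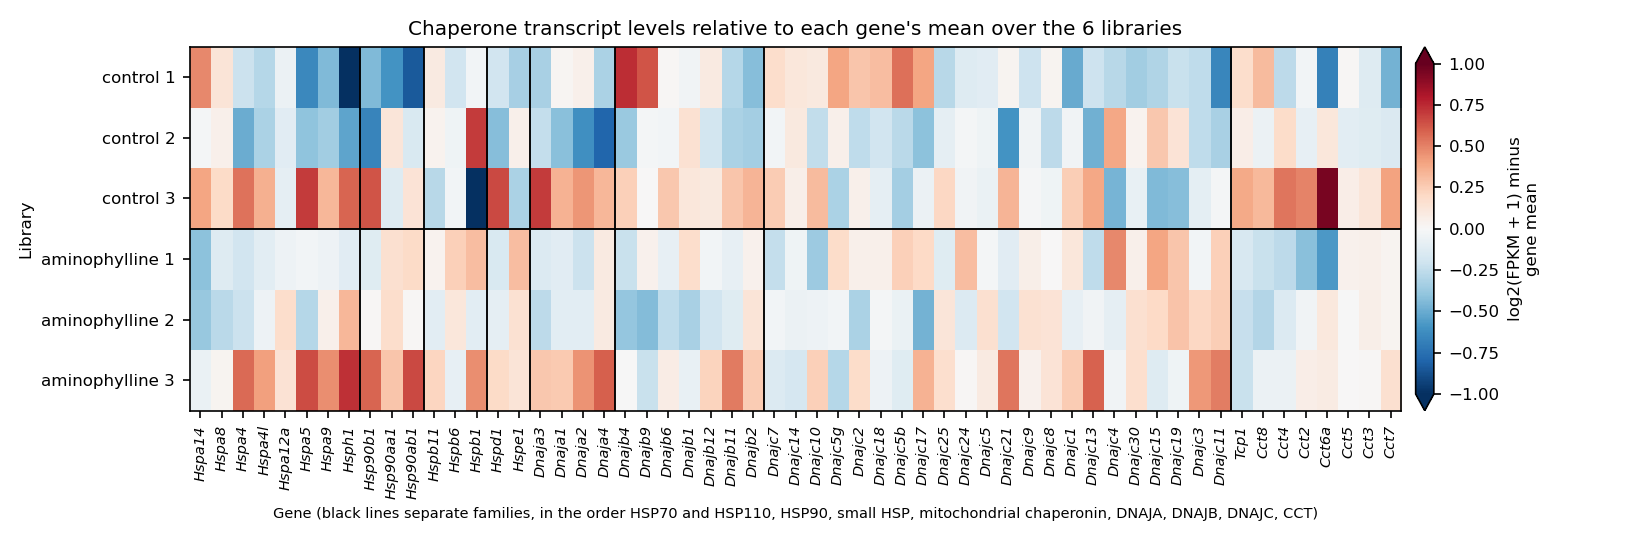
Log2(FPKM + 1) of the 57 tested members minus each gene's mean over the 6 libraries, with libraries in rows and genes in columns by family. Replicate 3 is high in both groups for many HSP70, HSP90 and DNAJA genes, and the 3 control libraries differ more from one another than the aminophylline libraries do.

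A pattern by replicate number ran across the families. In 28 of the 57 tested members (49.1%) replicate 3 was the highest library in both groups, beside 34.4% of all genes tested. For replicate 1 the share was 8.77% of members and 7.31% of all genes, and for replicate 2 it was 3.51% and 10%. The 28 members included all 4 DNAJA genes, Hspa4, Hspa4l, Hspa5, Hspa8, Hspa9, Hsph1, Hsp90ab1, Hsp90b1, Hspd1, Cct2, Cct4, Cct7 and Cct8. The control libraries also differed more among themselves. In 45 members (78.9%) the SD of the log2 values was larger in control than in aminophylline libraries, beside 74.7% of all genes.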

How the data were processed

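RNA of 6 oocyte libraries was analysed, 3 control and 3 aminophylline, grouped by their labels. The authors deposited FPKM per gene, reads scaled to transcript length and library total and not scaled further (sums of 510206 to 587775). The submitters' processing notes name GRCm38 and mm10, and the aligner and counter are not given in the sources used here. Gene positions are from RefSeq, GRCm38.p6. Whole reads recovered from the FPKM gave totals of 14112341 to 33641283 and 100% whole values (tolerance 0.001 reads) for 22583 genes. A count of 0 allows up to 3 reads, which is 0.0892 to 0.213 RPM and covers counting error only.

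Groups were compared with limma 3.58.1 (R 4.3.3) on log2(FPKM + 1) with moderated variance and a trend, two-sided, for the 10340 genes that reached 1 FPKM in 3 or more libraries. P-values were adjusted over all of them (Benjamini-Hochberg), and fold changes of low genes are understated on this scale. The study's methods name an unpaired t-test as their own, and its unmoderated counterpart was an alternative. Same-numbered libraries deviated from their group means with correlations of 0.138, 0.14 and 0.552 for replicates 1, 2 and 3. Pairs of unlike number were not compared in this way, so these values cannot show pairing by number. Over all genes tested, control library 2 correlated more with aminophylline library 1 (0.99) than with aminophylline library 2 (0.984). The numbers in the labels were taken as pairing for the block only, although no shared animal or day is stated. Blocked values stand beside results where they change a call.

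Other alternatives were a pseudocount of 0.1, no filter, a mean FPKM of at least 5, TPM, quantile normalization, median centring, voom on recovered reads and leaving out each library. The code was tested on simulated data. The members and lists (co-chaperones, HSF regulators, cell type markers, immediate early genes) were chosen with earlier results of these data known. Genes were named by rule as the 3 highest of each family, those at an unadjusted p under 0.05, all CCT genes and stress-inducible genes, and others were chosen after their values were seen. Shared words of 50 bases were counted over GENCODE M21 transcripts for 77 members, all but Cct6a. Python 3.11.15, numpy 2.4.6, pandas 2.3.3 and matplotlib 3.10.9 were used.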

Additional observations from a re-analysis of the deposited data

How the results depend on the processing

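No chaperone passed the adjusted threshold in any of the 16 alternatives, and no call at the unadjusted threshold changed direction. The count of 7 members at an unadjusted p under 0.05 became 4 with median centring and 11 with the replicate block, and ran from 3 to 10 when single libraries were left out. The higher count of 4 stayed at 4 with quantile normalization. It became 2 with TPM, 1 with median centring and 7 with the replicate block (1 to 9 over left-out libraries, 9 without control library 3). The lower count of 3 ran from 1 to 4 over left-out libraries. The 13 members without overlap became 5 with TPM (8.77%, beside 10.2% of all genes), 8 with quantile normalization (14% beside 14.3%) and 10 with median centring (17.5% beside 13.8%). They became 16 to 26 over left-out libraries, where fewer libraries make a gap easier (26 without control library 3, where 31.1% of all genes had no overlap). The CCT median of -0.26 ran from -0.36 to -0.01 over left-out libraries, that of HSP70 and HSP110 from -0.02 to 0.40, that of HSP90 from 0.21 to 0.71 and that of DNAJA from -0.19 to 0.28. The causes were not tested. Scaling moved the median of all genes from 0.10 to 0.06 with TPM and to 0.01 with quantile normalization or median centring, and the DNAJA median from 0.06 to -0.03 with median centring. With 3 libraries a group, many of the differences seen here lay near the spread between libraries. Among the members only Dnajc11 and Hspa14 kept an unadjusted p under 0.05 in all 17 settings, and neither passed the adjusted threshold.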
